A study of Homo sapiens with 12 samples.

Results

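Amber variants are reporter RNAs in which translation ends at the stop codon TAG (UAG in the RNA), set in a window of 10 bases. The window holds 6 random bases, which make up the penultimate and the last sense codon, then a triplet that is a stop codon or the tryptophan codon TGG, and then the next base. An amber variant here has TAG at bases 7 to 9 and no stop codon at bases 1 to 3 or 4 to 6. By that rule 9673 of 41955 listed variants of the EJC-independent reporter and 11462 of 51306 of the EJC-enhanced reporter were amber. Of these, 9634 and 11434 had a mean normalized count of 10 or more and were used. A further 618 and 862 variants with TAG at bases 7 to 9 were left out because another in-frame stop codon came first.

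The study measured reporter RNA by sequencing in HEK293T, a human embryonic kidney cell line, in 4 groups of 3 libraries each. The groups were the EJC-independent reporter with the SMG1 inhibitor SMG1i, the same reporter with the vehicle DMSO, the EJC-enhanced reporter with SMG1i, and the EJC-enhanced reporter with DMSO. SMG1i was used at 0.5 µM and both agents were added 24 hours before harvest to otherwise wild-type cells whose reporter library sat at a single genomic place. The deposited tables hold 1 comparison of SMG1i with DMSO for each variant and no value per library, so no value per sample can be shown, and since only reporter RNA is listed no marker of the cell type could be checked.

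SMG1 is the kinase that phosphorylates UPF1 during nonsense-mediated mRNA decay (NMD), which removes transcripts with a premature stop codon. The EJC, or exon junction complex, is a protein mark left near splice junctions, and when it lies downstream of a terminating ribosome it promotes NMD. At a stop codon the release factor eRF1 reads the triplet in the ribosomal A site together with the base that follows it, and it releases the peptide from the tRNA of the last sense codon, which sits in the P site. Amber, ochre (TAA) and opal (TGA) are all read by eRF1 in human cells, while TGG is read by tryptophan tRNA and translation goes on.

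The windows below, read 5′ to 3′, show the design, with the stop codon in capitals, the next base after it and the 6 random bases before it. Among the 789 sets of 6 random bases listed with all 4 triplets and all 4 next bases in both tables, the first set shown had the best lowest mean count of all, and the second and the third had it among those with glycine and with tyrosine as last amino acid. Within each of these, coverage chose the set, but glycine and tyrosine were taken with their responses known, so the windows illustrate that pair and test nothing. The first 4 encode proline and proline before the stop codon, the next 4 proline and glycine, and the last 4 proline and tyrosine.
Pro-Pro, TAGA: ccccccTAGa
Pro-Pro, TAGC: ccccccTAGc
Pro-Pro, TAGG: ccccccTAGg
Pro-Pro, TAGT: ccccccTAGt
Pro-Gly, TAGA: cccggcTAGa
Pro-Gly, TAGC: cccggcTAGc
Pro-Gly, TAGG: cccggcTAGg
Pro-Gly, TAGT: cccggcTAGt
Pro-Tyr, TAGA: ccctacTAGa
Pro-Tyr, TAGC: ccctacTAGc
Pro-Tyr, TAGG: ccctacTAGg
Pro-Tyr, TAGT: ccctacTAGt

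Response here means the log2 fold change between SMG1i and DMSO in the authors' deposited table with its sign reversed. A positive response is read as more RNA under SMG1i, a direction that the tables do not state and that is taken from the sign of the stop codon variants. In the EJC-independent reporter the authors' deposited table gives ccccccTAG a response of 1.78, 1.59, 1.66 and 1.63 before A, C, G and T, with deposited standard errors of 0.04 to 0.06. The ochre windows with the same 6 bases had 1.85, 1.56, 1.73 and 1.72, and the opal windows 2.05, 1.64, 2.01 and 1.98, in the authors' deposited table. The TGG windows with those bases had 0.22, 0.59, 0.31 and 0.26 in the authors' deposited table. All 4 amber windows lay above all 4 TGG windows, and each lay below the opal window with the same next base. The next best covered sets were ccctccTAG (proline and serine), with 1.97, 1.84, 1.87 and 1.76 before A, C, G and T, and tcccccTAG (serine and proline), with 1.63, 1.50, 1.56 and 1.65, in the authors' deposited table. TAGA lay above TAGC in all 3 of these sets.

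With glycine as last amino acid, cccggcTAG had responses of 2.45, 2.37, 2.29 and 2.07 before A, C, G and T in the EJC-independent reporter, per the authors' deposited table. With tyrosine as last amino acid, ccctacTAG had 1.47, 1.46, 1.38 and 1.56 in the authors' deposited table. The 4 glycine windows and the 4 tyrosine windows did not overlap in this reporter. The glycine window before G had a mean count of 148 and a deposited standard error of 0.41. Glycine and tyrosine did not overlap with the other stop codons either, by the authors' deposited table. The ochre windows had 2.02 to 2.43 and 1.22 to 1.74, and the opal windows 2.31 to 2.43 and 1.61 to 1.78. For the EJC-enhanced reporter the authors' deposited table gives 2.32, 2.49, 2.41 and 2.52 for the glycine windows and 2.92, 2.32, 2.17 and 2.51 for the tyrosine windows. Those values overlapped, and their deposited standard errors were 0.31 to 0.41. In the EJC-independent reporter the same windows had deposited standard errors of 0.10 to 0.41 for glycine and 0.05 to 0.11 for tyrosine.

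Most amber variants had more RNA under SMG1i. With the adjusted p of the authors' deposited table under 0.05, 7988 of 9634 amber variants (82.9%) were higher and 0 were lower in the EJC-independent reporter, where 64.8% of all usable variants were higher and 0.999% lower. For the EJC-enhanced reporter the authors' deposited table calls 9700 of 11434 amber variants (84.8%) higher and 0 lower. Among all 51167 variants taken in the same way, it calls 63.6% higher and 0.356% lower. The response of 116 and 70 amber variants was below 0, none of them with an unadjusted DESeq2 p under 0.05 in the authors' deposited table. Ochre variants were called higher in 85.1% and 86.5% of cases and opal variants in 86.5% and 85.8%, while TGG variants were called higher in 4.09% and 2.76%, all by the authors' deposited table.

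The share called moved with depth. Among amber variants of the EJC-independent reporter with mean counts of 10 to 50, 32.3% were called higher in the authors' deposited table, and among those with 500 or more all 3166 were. The lowest count class of the EJC-enhanced reporter had 52.5% called and the highest 98.6%, again by the authors' deposited table. The SD between amber variants was 1.05 in the lowest count class and 0.29 in the highest of the EJC-independent reporter, with mean responses of 1.57 and 1.63. Mean responses in the EJC-enhanced reporter were 2.09 in the lowest class and 2.27 to 2.31 in the others. The part of depth in the share per tetranucleotide was not tested, but the values moved together. TAGC had the highest median count in both tables, 335 and 201, and the highest share called in the authors' deposited table, 86.6% and 88.6%. TAGA had the lowest median count, 176 and 99.4, and 80.6% and 81.0% called. TAGG had 80.4% and 81.5% called and TAGT 82.7% and 86.9%, so the response itself, not the share called, is compared between tetranucleotides.

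Of 8636 amber variants usable in both tables, 6673 were called higher in both and 238 in neither, per the authors' deposited tables. A further 645 were called in the EJC-independent reporter alone and 1080 in the EJC-enhanced reporter alone, which shows where a threshold was passed and tests no difference between reporters. This count was not made for the other triplets or for all usable variants, so it shows nothing particular to amber. Within each table ochre and opal had higher shares called than amber, as given above.

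The mean response of amber variants was 1.63 in the EJC-independent reporter (SD 0.61 over 9634 variants), a 3.10-fold higher RNA level under SMG1i. It was 2.26 in the EJC-enhanced reporter (SD 0.77 over 11434 variants), or 4.79-fold. TGG variants centred at -0.02 and 0.03. The scaling inside the deposited comparison sets where 0 lies and is not described, so the comparisons below use differences within a table. Errors and p-values of the means below run over sequences measured in the same libraries and not over replicate cultures, and nothing in the labels tells if the 3 replicates were grown separately.

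Amber was set against TGG, ochre and opal in windows that shared all 6 random bases and the next base. In 8001 such windows of the EJC-independent reporter, amber exceeded TGG by 1.64 (SE 0.0092 over windows, 95% interval 1.62 to 1.66). The EJC-enhanced reporter had a difference of 2.23 (95% interval 2.22 to 2.25). The difference passed before every next base. Before A, C, G and T it was 1.72, 1.61, 1.63 and 1.63 in the EJC-independent reporter and 2.31, 2.23, 2.15 and 2.25 in the EJC-enhanced reporter.

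Among the stop codons, amber had the lowest response in the EJC-independent reporter. Amber minus ochre was -0.05 in 7773 windows (SE 0.0085, adjusted p = 1.67e-09 in a z test clustered by the 6 random bases), and amber minus opal was -0.20 in 7508 windows (SE 0.0088, 95% interval -0.21 to -0.18). Carried over from the deposited errors, with windows taken as independent, the standard error was 0.0077 and 0.0079 for these differences. The windows share their libraries, so variation common to a whole library is not in these values. Amber was lower than opal before each next base, with differences of -0.19 before A, -0.18 before C, -0.23 before G and -0.20 before T, and all 4 passed after Benjamini-Hochberg adjustment over 30 contrasts. Amber was lower than ochre before G, at -0.11 (adjusted p = 1.37e-08), before C, at -0.04 (adjusted p = 0.000543), and before A, at -0.05 (adjusted p = 0.0398). Before T the difference was -0.02, with a 95% interval of -0.046 to 0.016 (adjusted p = 0.338). The call before A ended at mean counts of 50 or more.

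A smaller gap to opal was found in the EJC-enhanced reporter. Amber minus ochre was -0.04 in 10111 windows (adjusted p = 8.37e-05) and amber minus opal -0.04 in 9899 windows (adjusted p = 0.000251), by the same test. Before G amber was lower than both, with -0.08 against ochre (adjusted p = 0.000465) and -0.09 against opal (adjusted p = 0.000134). Before A neither contrast passed, with 0.02 against ochre (95% interval -0.026 to 0.068) and -0.00 against opal (95% interval -0.052 to 0.042), although at mean counts of 50 or more the value against ochre was 0.06 and passed. Before T the values were -0.03 and -0.03 and did not pass. Before C amber was lower than ochre, at -0.06 (adjusted p = 0.000181), while against opal the value was -0.03 (adjusted p = 0.0773).

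Small differences went with the next base after TAG. In windows with the same 6 random bases, TAGA exceeded TAGC by 0.10 (95% interval 0.067 to 0.14, adjusted p = 8.04e-08), TAGG by 0.09 (adjusted p = 0.000107) and TAGT by 0.05 (adjusted p = 0.0102) in the EJC-independent reporter. TAGC, TAGG and TAGT did not pass against each other, with C minus G at 0.01 (95% interval -0.019 to 0.044), C minus T at -0.03 and G minus T at -0.03. At mean counts of 100 or more A minus C was 0.06 and A minus G 0.04 and both passed, A minus T was 0.03 and did not, and C minus T passed at -0.05. The mean response was 1.70 for TAGA, 1.61 for TAGC, 1.60 for TAGG and 1.64 for TAGT, each with an SD of 0.55 to 0.67.

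TAGG stood lowest in the EJC-enhanced reporter. TAGG was below TAGA by 0.12 (A minus G, 95% interval 0.072 to 0.16, adjusted p = 6.69e-06), below TAGC by 0.07 (C minus G, adjusted p = 0.00383) and below TAGT (G minus T -0.07, adjusted p = 0.00383). The mean response was 2.31 for TAGA, 2.27 for TAGC, 2.20 for TAGG and 2.27 for TAGT. At mean counts of 50 or more the order was less settled, since C minus G and G minus T were then 0.03 and -0.03 and did not pass, while A minus C was 0.11 and A minus T 0.09 and both passed. With last codons in place of windows as units, 0 of the 6 contrasts passed in this reporter. None of the 6 next-base contrasts after TAG passed as different between the reporters, the nearest being A minus G at -0.07 (95% interval -0.14 to -0.00077, adjusted p = 0.0998).

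A next base of A was the highest of the 4 after TAG for 13 of 20 last amino acids in the EJC-independent reporter and for 13 of 20 in the EJC-enhanced reporter. G was the lowest for 12 of 20 in the EJC-enhanced reporter and for 7 of 20 in the EJC-independent reporter, where C was also the lowest for 7. By comparison, A was the highest after ochre for 11 of 20 amino acids and after opal for 11 of 20 in the EJC-independent reporter, and for 6 and 9 in the EJC-enhanced reporter. After TGG, where no termination takes place, A was the highest for 4 of 20 and 3 of 20. The triplets lay closer when the same variants were grouped by penultimate amino acid. A was then the highest after amber, ochre, opal and TGG for 11, 8, 11 and 7 of 20 in the EJC-independent reporter. In the EJC-enhanced reporter it was the highest for 10, 9, 9 and 7. These counts are a description and carry no test.

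Whether the next base acted differently after amber than after the other triplets was tested on windows listed with both triplets. Compared with ochre in the EJC-independent reporter, 3 of the 6 next-base contrasts differed. C minus G was 0.02 after amber and -0.08 after ochre, a difference of 0.09 (adjusted p = 0.000427 over 36 contrasts, same z test). A minus G was 0.09 after amber and 0.02 after ochre, a difference of 0.08 (adjusted p = 0.0335). G minus T was -0.03 after amber and 0.05 after ochre, a difference of -0.08 (adjusted p = 0.00388). Within the EJC-enhanced reporter A minus G was 0.14 after amber and 0.02 after ochre, a difference of 0.11 (adjusted p = 0.00431), and A minus C also differed, by 0.08 (adjusted p = 0.0265). With last codons as units these differences between amber and ochre did not pass, and of those against opal and TGG given next A minus G, C minus G and G minus T against TGG in the EJC-enhanced reporter did.

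Against opal, 0 of 6 next-base contrasts differed in the EJC-independent reporter by the z test, with 0 at an unadjusted p under 0.05, and C minus G was 0.03 larger after amber (adjusted p = 0.354). For the EJC-enhanced reporter A minus G was 0.10 larger after amber (adjusted p = 0.0182) and C minus G 0.08 larger (adjusted p = 0.0265). Against TGG, A minus C, A minus G and A minus T were larger after amber in the EJC-independent reporter, by 0.11, 0.09 and 0.06 (adjusted p = 9.99e-05, 0.00455 and 0.0398). Likewise, A minus G was 0.16 larger after amber in the EJC-enhanced reporter (adjusted p = 1.21e-06), A minus C and C minus G were each 0.09 larger (adjusted p = 0.00431 for both), and G minus T was -0.09 (adjusted p = 0.00431).

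The base before TAG, the third base of the last codon, was described jointly with the next base, without a test. In the EJC-independent reporter the 16 pentamers made of previous base, TAG and next base had means of 1.58 for TTAGG to 1.73 for CTAGA. Those of the EJC-enhanced reporter ran between 2.14 for GTAGG and 2.35 for CTAGA. The same pentamer, CTAGA, was highest in both reporters.

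The last amino acid before amber went with larger differences in the EJC-independent reporter. Glycine, the smallest amino acid, had a mean response of 2.04 over 408 amber variants, which was 0.42 above the amber variants with other last amino acids (SE 0.039, adjusted p = 2.69e-26 over 80 effects). Threonine, a hydroxyl amino acid, had 1.98 over 702 variants and lay 0.38 above the others (SE 0.028, adjusted p = 5.26e-39). Serine and proline were also higher, with 1.68 each and effects of 0.06 (adjusted p = 0.00656) and 0.05 (adjusted p = 0.00777). Aspartate had 1.71 and arginine 1.68, and neither passed (adjusted p = 0.121 and 0.0747).

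The lowest responses before amber followed tyrosine, glutamine, phenylalanine and histidine. Tyrosine had 1.38 over 336 variants, an effect of -0.26 (adjusted p = 9.91e-16), and phenylalanine had 1.40, an effect of -0.24 (adjusted p = 1.09e-15). Glutamine had 1.39 (effect -0.25) and histidine 1.41 (effect -0.23), and both passed. Methionine at 1.44, asparagine at 1.45, cysteine at 1.46 and leucine at 1.59 were lower as well. In all, 4 amino acids were higher and 8 lower of 20 before amber, against 4 and 9 before ochre, 6 and 9 before opal, and 0 and 2 before TGG. With the matched TGG value subtracted, the methionine effect was -0.14 and did not pass (adjusted p = 0.276 over 80 effects), and the proline effect was 0.05, which passed over 80 effects (adjusted p = 0.0402) but not over the 120 effects by triplet (adjusted p = 0.0569). The other 10 calls held in both. The means of the 20 amino acids spanned 0.66 before amber, or 1.58-fold, against 0.70 before ochre, 0.78 before opal and 0.15 before TGG.

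The effects before amber ran close to those before the other stop codons. Glycine had an effect of 0.42 before amber, 0.43 before ochre and 0.44 before opal. Threonine had 0.38 before amber, 0.38 before ochre and 0.43 before opal, and tyrosine had -0.26 before amber, -0.30 before ochre and -0.37 before opal. The stop codons share their 6 random bases and their libraries, so these are values side by side. Amber lay below ochre for 19 of 20 last amino acids, and 0 of 20 amino acids passed for a different amber minus ochre gap in the EJC-independent reporter, with 0 at an unadjusted p under 0.05.

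Against opal, 2 of 20 last amino acids passed. For leucine, amber minus opal was -0.11, compared with -0.21 for the other amino acids, a difference of 0.10 (adjusted p = 0.000205 over 120 effects, z test clustered by the 6 random bases). For serine, amber minus opal was -0.25, compared with -0.19 for the others, a difference of -0.06 (adjusted p = 0.0399). Both passed at mean counts of 50 or more and 100 or more and with inverse variance weights. Amber was below opal for 20 of 20 last amino acids, by -0.32 to -0.11, and for 60 of 61 last codons.

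Leucine has 6 codons, and they were spread. The amber minus opal difference was -0.03 for TTG, -0.04 for CTC, -0.08 for CTG, -0.14 for CTA, -0.14 for CTT and -0.27 for TTA, so TTA lay farther below opal than the mean of the other amino acids. Of the 6 serine codons, TCA and TCG had the widest gaps, -0.35 and -0.32, and AGC the narrowest, -0.15. Codons of an amino acid were not tested against each other.

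By codon, amber variants of the EJC-independent reporter had their highest mean responses after GGC at 2.08, ACG at 2.04, GGA at 2.03 and GGG at 2.02, of which 3 encode glycine and ACG threonine. The lowest followed CAA (glutamine) at 1.34, TAT (tyrosine) at 1.35, TTA (leucine) at 1.35 and AGG (arginine) at 1.39. The SD of the 61 codon means was 0.19. Arginine codons thus reached the lowest end although the amino acid as a whole did not pass.

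The difference between glycine and tyrosine before amber, the pair shown in the windows above, was 0.66 in the EJC-independent reporter. These are the highest and the lowest of the 20 amino acid means there, so the value is a description with no test. It was 0.67 before A, 0.72 before C, 0.60 before G and 0.63 before T. Glycine had means of 2.14, 2.03, 1.98 and 2.02 before those bases, and tyrosine 1.48, 1.30, 1.38 and 1.39. Threonine minus tyrosine was 0.60. Glycine minus tyrosine was 0.03 in the EJC-enhanced reporter, with a 95% interval of -0.08 to 0.13.

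Before amber 0 of 20 last amino acids passed in the EJC-enhanced reporter in the z test on the mean response, with 3 at an unadjusted p under 0.05. Those were methionine at 2.11, phenylalanine at 2.20 and arginine at 2.21, with effects of -0.16, -0.06 and -0.06. Aspartate had the highest mean, 2.35, followed by isoleucine at 2.31, threonine at 2.30 and alanine at 2.29, and the lowest after methionine was glutamate at 2.19. Over the alternatives the glutamate effect ran from -0.077 to 0.17 and the methionine effect from -0.16 to 0.00042. The direction for glutamate thus depends on the processing. Glycine had 2.27 and tyrosine 2.25. The amino acid means spanned 0.25, against 0.66 in the EJC-independent reporter, and the SD of the 61 codon means was 0.08. The gap of amber to ochre, opal or TGG passed as different for 0 of 20 last amino acids in this reporter by the z test, with 2, 1 and 0 at an unadjusted p under 0.05.

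The reporters were compared directly over windows listed in both tables, each value being a difference within its own table. The effect of threonine before amber was 0.38 in the EJC-independent and 0.01 in the EJC-enhanced reporter, a difference of 0.36 (adjusted p = 4.35e-21 over 61 tests, z test). Glycine differed by 0.33, with effects of 0.40 and 0.08, and tyrosine by -0.32, with effects of -0.28 and 0.03. The amber minus opal gap also differed, at -0.20 in the EJC-independent and -0.04 in the EJC-enhanced reporter (adjusted p = 2.69e-31). The amber minus ochre gap did not pass, at -0.05 and -0.04, a difference of -0.01 with a 95% interval of -0.038 to 0.016.

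The penultimate amino acid went with smaller differences before amber. In the EJC-independent reporter valine was highest, with 1.79 and an effect of 0.16 (adjusted p = 7.33e-06), followed by isoleucine at 1.73, tyrosine at 1.73 and proline at 1.72, with effects of 0.10, 0.10 and 0.09 (adjusted p = 0.0424, 0.0318 and 0.00011). Histidine was lowest, with 1.50 and an effect of -0.14 (adjusted p = 0.000161), followed by arginine at 1.52 (effect -0.13, adjusted p = 2.92e-07). Serine was lower by -0.05 (adjusted p = 0.0437), while glutamine at 1.55 did not pass (effect -0.09, adjusted p = 0.0724). The means spanned 0.28. Tyrosine, among the lowest in the last position, stood among the highest in the penultimate one, a contrast of position that was not tested. The isoleucine, tyrosine and serine calls ended with the matched TGG value subtracted, and the isoleucine and tyrosine calls also at mean counts of 50 or more.

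Read as the amber minus TGG difference, 4 penultimate amino acids passed in the EJC-independent reporter. Valine was 0.15 and proline 0.09 above the others, and arginine was -0.14 and histidine -0.11 below them. Between amber and opal 0 of 20 passed, with 3 at an unadjusted p under 0.05 in the z test; arginine was at 0.08 and proline at -0.06, each with an adjusted p = 0.0715. Both of these passed at mean counts of 50 or more. For the EJC-enhanced reporter 0 of 20 passed before amber in the z test, with 1 at an unadjusted p under 0.05, proline, whose mean was 2.32 and effect 0.07 (adjusted p = 0.061). Tryptophan was the lowest there at 2.13, with lysine at 2.14 and asparagine at 2.18, and none of these passed. The tryptophan effect was -0.13 before amber (adjusted p = 0.445) and passed only with the matched TGG value subtracted, at -0.30 (adjusted p = 0.0195). Before amber it turned to 0.02 at mean counts of 50 or more and to 0.09 at 100 or more, neither passing, so its direction depends on the count minimum. Between reporters the effects of valine, arginine and proline differed, by 0.18, -0.17 and 0.08.

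Base content bears on which windows were listed at all. Of the amber windows with 6 pyrimidines, all 256 of 256 were listed in both tables, whereas of those with 6 purines 9.38% were listed in the EJC-independent table and 15.2% in the EJC-enhanced table. Codons made of purines, such as those of lysine and glutamate, therefore rest on few variants. The 256 pyrimidine windows, 64 for each next base, form a complete set with median mean counts of 2786 and 1417. All 256 were called higher in both reporters by the authors' deposited tables. In the EJC-independent reporter so were 255 of the ochre, 254 of the opal and 39 of the TGG windows with those bases. At mean counts of 500 or more, 100% of ochre and opal variants were called higher there, and 99.3% in the EJC-enhanced reporter. A full call at this depth is thus not particular to amber. The amber windows had a median response of 1.60 in the EJC-independent reporter, against 1.61 for ochre, 1.75 for opal and 0.03 for TGG. Medians of the EJC-enhanced reporter were 2.14 for amber, 2.23 for ochre, 2.23 for opal and 0.05 for TGG. Split by next base, the EJC-independent medians were 1.67 for TAGA, 1.57 for TAGC, 1.58 for TAGG and 1.60 for TAGT. The EJC-enhanced medians were 2.13 for TAGA, 2.17 for TAGC, 2.05 for TAGG and 2.18 for TAGT, and TAGG lay below TAAG at 2.18 and TGAG at 2.21. TAGA thus had the highest of the 4 medians in the EJC-independent reporter but not in the EJC-enhanced one.

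The response also moved with the G and C content of the 6 random bases. Amber variants with 5 or 6 G or C had a median of 1.71 and those with 5 or 6 A or T a median of 1.50 in the EJC-independent reporter, where the median of all amber variants was 1.62. The EJC-enhanced medians were 2.25 and 2.17, with 2.24 over all amber variants. Median mean counts differed the same way, 450 and 143 in the EJC-independent and 238 and 80.8 in the EJC-enhanced table, and their part in the difference was not tested. Base content and amino acid overlap in these groups. The shift was not particular to amber. In the EJC-independent reporter the medians of the G or C and the A or T group were 1.74 and 1.57 for ochre and 1.92 and 1.65 for opal. TGG had -0.02 and -0.05.

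The mean count over the libraries of both treatments also differed between triplets. In matched windows the amber count was 0.685 times that of TGG in the EJC-independent reporter and 0.428 times in the EJC-enhanced reporter, as medians. Against ochre the median ratio was 0.887 and 0.874, and against opal 1.03 and 0.986. These counts depend also on how often each variant was integrated, which the tables do not give.

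Single amber variants that passed the adjusted p of 0.05 in the authors' deposited table at mean counts of at least 100 were ranked by response, 6548 of them in the EJC-independent reporter. Its highest and lowest windows are shown because glycine recurs among the highest, with 4 of the 5 highest carrying it as last amino acid. Glycine was last in 408 of the 9634 usable amber variants. The 5 highest had mean counts of 107 to 151, near the minimum of 100. Glycine had mean responses of 2.09 before ochre and 2.26 before opal, against 2.04 before amber, so its high place is not particular to amber.
Highest, Ser-Pro: tcgccgTAGg
Highest, Thr-Gly: accggcTAGg
Highest, Ser-Gly: agcggcTAGt
Lowest, Ser-Tyr: tcatacTAGc
Lowest, Ser-Leu: agtcttTAGg
In the authors' deposited table these had responses of 4.21, 4.03 and 3.81 for the highest and 0.37 and 0.47 for the lowest, with deposited standard errors of 0.49, 0.45, 0.44, 0.12 and 0.18. The same windows had 2.09, 2.38, 1.83, 2.67 and 3.00 in the authors' deposited table of the EJC-enhanced reporter. Their deposited standard errors there were 0.36, 0.52, 0.53, 0.40 and 0.66. The other lowest windows of the first reporter had 1.45, 2.32 and 2.19 in that table, and the other highest window with a value there had 2.37. The lowest and the highest windows thus overlapped in the EJC-enhanced reporter. The windows were picked for their response in 1 reporter, and no test was made of their values.

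Among 6623 ranked amber variants of the EJC-enhanced reporter, 4 of the 5 highest ended in A as the next base. TAGA made up 2495 of the 11434 usable amber variants. It had the lowest median count of the 4 tetranucleotides, 99.4, and the highest median deposited standard error, 0.63. These windows were picked for their response, and no test was made.
Highest, Tyr-Asp: tatgatTAGc
Highest, Ile-Arg: attcgtTAGa
Lowest, His-Gln: caccagTAGt
The authors' deposited table gives them responses of 6.46, 5.87 and 0.96, with deposited standard errors of 1.00, 0.97 and 0.42. Mean counts of these windows in the EJC-enhanced table were 141, 121 and 127. The same windows had 1.94, 2.72 and 2.93 in the EJC-independent reporter, per the authors' deposited table. Their mean counts there were 764, 2138 and 34.1, with deposited standard errors of 0.17, 0.15 and 0.82. The other lowest windows had 1.27, -0.24, 1.64 and 1.04 in that table, the -0.24 at a mean count of 11.4. The other highest windows had 1.88, 1.98 and 1.76. The median deposited standard error of amber variants in the EJC-enhanced table was 0.57. The highest windows lay above it and the lowest below it. Only called variants were ranked, so a low response could enter only with a small standard error, and this place was fixed by the filter. The 1734 amber variants not called in this reporter were left out of the ranking.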

How the data were processed

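RNA of reporter variants was measured in 12 libraries of HEK293T cells. Per the file headers, each deposited row gives for 1 variant a mean normalized count (a signal averaged over libraries), a log2 fold change, its standard error, the Wald score, and raw and adjusted p-values. The submitters' processing notes name DESeq and DESeq2, with no version. No source used here gives the assignment of reads to variants or the genomic place of the reporter. Depth per library is unknown; among amber variants the median mean count was 238 and 138 and the median standard error 0.34 and 0.57 in the EJC-independent and EJC-enhanced tables, so single variants are imprecise.

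Which treatment is on top of the fold change is not written in the tables. As deposited, stop codon variants are negative and TGG variants centre near 0, so the log2 fold change was multiplied by -1; with the other numerator every sign would turn. Tables were normalized apart, so reporters were compared only through differences within each table.

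Variants with mean counts of 10 or more were used (Python 3.11.15, numpy 2.4.6, pandas 2.3.3, scipy 1.17.1). Triplets and next bases were compared in windows with the same other bases. Each amino acid was set against the other 19 in a linear model. Standard errors were clustered by the 6 random bases, with a two-sided z test and Benjamini-Hochberg adjustment within each family and table: 30 triplet, 24 next-base, 36 next-base by triplet, 80 amino acid and 120 amino acid by triplet effects per position, and 61 tests between reporters. The code was tested on simulated data. Named amino acids and codons are the 4 highest and 4 lowest in last position, the 3 highest and 3 lowest in penultimate position and any that passed in a comparison of triplets; other amino acids were named after their values were seen, because they passed or came near. Lowest and highest single variants were ranked at mean counts of 100 or more. The members and lists were chosen with earlier results of these data known. Count minimums, weights, medians, codon units, TGG subtraction and a stricter adjusted p were tried as alternatives.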

Additional observations from a re-analysis of the deposited data

Results flagged for a closer look

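These amber results differed between the reporters in a test of the difference itself, made over windows listed in both tables and adjusted over 61 tests. Each value is the EJC-independent minus the EJC-enhanced result. The amber minus opal gap differed by -0.16 over all next bases, and by -0.18 before A, -0.15 before C, -0.13 before G and -0.19 before T. The amber minus TGG difference differed by -0.60 over all next bases (1.64 in the EJC-independent and 2.24 in the EJC-enhanced reporter), and by -0.59 before A, -0.62 before C, -0.53 before G and -0.62 before T.

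Of the last amino acids before amber, those with a larger or more positive effect in the EJC-independent reporter were threonine (0.36), glycine (0.33), serine (0.11), proline (0.10) and arginine (0.10). Those with a more negative effect there were tyrosine (-0.32), glutamine (-0.28), asparagine (-0.26), histidine (-0.19), cysteine (-0.18) and phenylalanine (-0.13). Arginine is on this list although its own effect passed in neither reporter. Of the penultimate amino acids, valine (0.18) and proline (0.082) had a more positive and arginine (-0.17) a more negative effect in the EJC-independent reporter.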

How the results depend on the processing

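Over all alternatives the amber minus TGG difference stayed between 1.63 and 1.66 in the EJC-independent and between 2.23 and 2.26 in the EJC-enhanced reporter, amber minus opal between -0.20 and -0.18 and between -0.042 and -0.037, and amber minus ochre between -0.06 and -0.03 and between -0.05 and -0.03. The glycine effect before amber in the EJC-independent reporter stayed between 0.36 and 0.47. The next-base contrasts past the threshold after TAG, 3 in each reporter, became 5 in each with inverse variance weights, and 0 in the EJC-enhanced reporter with last codons as units. In the EJC-independent reporter, penultimate amino acids lower before amber became 5 with inverse variance weights, against 3, and those higher became 2 with TGG subtracted, against 4. In the EJC-enhanced reporter, where 0 had passed, 1 passed in each of 5 cases: penultimate proline (higher) with no count minimum, last phenylalanine (lower) at mean counts of 50 or more, last threonine (higher) and penultimate phenylalanine (lower) with inverse variance weights, and penultimate tryptophan (lower, at -0.30) with TGG subtracted. The A minus C contrast after amber less that after opal, 0.01 in the EJC-independent reporter, turned to -0.041 (adjusted p = 0.0152) with inverse variance weights; the cause was not tested. With an adjusted p under 0.01, 75.0% and 75.3% of amber variants were called higher in the authors' deposited tables. The shares of the other triplets and of all usable variants at that threshold were not worked out. No paired analysis was possible because the tables hold no value per library, and for the same reason leaving out each replicate and another normalization were not run.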
